A study of Mus musculus with 12 samples.

Results

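The transcripts of hypoxia-inducible factor 1α (Hif1a) and of 8 genes that pair with it, mark it for removal or respond to it were followed in regulatory T cells (Treg) from mouse spleen. The 9 genes were Hif1a, Epas1, Arnt, Egln1, Egln2, Egln3, Vhl, Hif1an and Vegfa, each found by its name among the 41457 genes counted in every library. The group was put together around Hif1a, which was selected on its exon reads in unstimulated Treg, where it was 1 of 16 genes past the threshold between the genotypes (0.135% of 11829 genes tested). Its values in that comparison, and in any other that uses the unstimulated libraries, are therefore given here without a test. The other 8 genes were added for their known roles with results of these data in view, and they are likewise described without a test between the genotypes in unstimulated Treg.

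RNA-Seq was performed on 12 libraries, 3 for each combination of genotype and culture. CD18Foxp3 mice carried floxed alleles of CD18 (Itgb2, the shared β chain of the β2-integrins) and Cre expressed from the Foxp3 locus, so that CD18 was deleted in cells that express Foxp3, the lineage factor of Treg. The CD18wt controls were littermates with the same Foxp3 Cre and unfloxed CD18, and all mice carried an RFP reporter that Cre switches on. RFP+CD4+ splenic cells were sorted and kept overnight in 5 U/mL IL-2, either alone (unstimulated) or together with 1 µg/mL anti-CD3 and 2 µg/mL anti-CD28, antibodies that engage the T cell receptor and its costimulator (stimulated). Mice were matched for age and sex, and the ages of the sequenced mice are not given in the sources used here. The oxygen tension of the cultures is not given there either. The labels name the libraries of a group as biological replicates and do not tie them to single mice. The authors' plots of cytokine transcripts in these cultures describe their dots (n = 3) as individual mice. Whether both cultures of a genotype came from the same mice is not stated. The p-values measure the spread between these libraries. In bulk RNA of a sorted population, a lower level cannot be told apart from fewer cells that express the gene.

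Hypoxia-inducible factors are pairs of an oxygen-regulated α chain, Hif1a or Epas1 (HIF-2α), and the constitutive β chain Arnt. When oxygen is present, the prolyl hydroxylases Egln1, Egln2 and Egln3 (PHD2, PHD1 and PHD3) modify the α chain, the Vhl ubiquitin ligase then binds it and sends it to the proteasome, and Hif1an (factor inhibiting HIF) blocks its contact with coactivators. In T cells, Hif1a is best known for raising glycolysis, and T cell receptor signals raise its protein also when oxygen is plentiful. Most of this control acts on protein, which RNA-Seq does not measure.

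Hif1a (ENSMUSG00000021109) lies on the plus strand of chromosome 12 of GRCm38 from 73901375 to 73947530, and Egln3 lies on the minus strand of the same chromosome from 54178981 to 54203860. Epas1 (plus strand, 86753700 to 86833410) and Vegfa (minus strand, 46016993 to 46032369) lie on chromosome 17. Arnt lies on chromosome 3 from 95434388 to 95497240, Egln1 on chromosome 8 from 124908587 to 124949324, Egln2 on chromosome 7 from 27158658 to 27166802, Vhl on chromosome 6 from 113623959 to 113631633 and Hif1an on chromosome 19 from 44562850 to 44576274. HIF binds DNA at a core of 5 bases, ACGTG or GCGTG, and the promoters were searched for both forms on both strands because Egln3 and Vegfa are textbook HIF targets. RefSeq windows of the 250 bases before the transcription start (GRCm38.p6) were at hand for 8 of the 9 genes, all but Epas1. The form ACGTG was present in 5 of the 8, namely Hif1a, Egln1, Egln2, Egln3 and Vegfa, and in 16.6% of 32851 windows of the same length. GCGTG was present in Arnt, Egln1, Egln2 and Vegfa, and in 28.2% of these windows. The shares are per window, whereas a gene counts when any of its windows holds the form. The stretches that hold ACGTG are shown 5′ to 3′ on the strand of the gene, with these letters in capitals. In the first Hif1a stretch it reads on both strands, as CACGTG, and in Vegfa it reads on the opposite strand, as CACGT.
Hif1a, plus strand, chr12:73907720-73907749: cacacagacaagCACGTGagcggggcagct
Hif1a, plus strand, chr12:73907785-73907813: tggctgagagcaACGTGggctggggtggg
Egln1, minus strand, chr8:124949306-124949334: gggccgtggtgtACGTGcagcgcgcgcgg
Egln2, minus strand, chr7:27166834-27166862: agcctcctgtcaACGTGcggttcgcgcac
Egln3, minus strand, chr12:54204087-54204115: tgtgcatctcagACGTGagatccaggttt
Vegfa, minus strand, chr17:46025358-46025386: ggagtgcgtgccCACGTcagagagcaaca
These are matches of letters within windows before 1 or, for Egln2 and Vegfa, 2 annotated starts. Binding was not measured. The Hif1a window precedes a RefSeq start that lies downstream of the first base of the gene in the count tables. The same holds for the Vegfa window with the matches, at 46025114 to 46025413. The other Vegfa window, at the 5′ end of the gene (46032328 to 46032627), held neither form. The Egln1 stretch overlaps the first bases of the gene as counted.

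The libraries held between 10665174 and 19005482 exon reads. Itgb2 was detected at 428 ± 39.2 TPM (a level per transcript length and library depth, SD, n = 3) in unstimulated CD18wt Treg and at 240 ± 15.0 TPM in unstimulated CD18Foxp3 Treg, and at 330 ± 1.16 and 172 ± 36.7 TPM in the stimulated groups, in a count over all exons and not over the deleted one alone. Among 9 Treg and T cell markers, 8 were detected in every library, Foxp3 between 73.4 and 207 TPM, and Trac, a constant gene of the T cell receptor, was listed at 0 in all. Summed markers of B and plasma cells stayed between 11.6 and 34.7 TPM and those of cytotoxic lymphocytes between 13.8 and 38.8 TPM.

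Hif1a was by far the most abundant of the 9 transcripts per length, with group means between 141 and 340 TPM. Egln1 and Egln2 followed at 72.4 to 88.8 TPM and 44.1 to 59.2 TPM. Egln3, Vhl, Hif1an and Arnt had group means between 9.13 and 46.0 TPM, in an order that depended on the culture. Epas1 stayed below 10 TPM in every library and Vegfa below 6 TPM. Hif1a thus exceeded its partner Arnt by 6.17 ± 0.919 times (ratio of TPM, SD, n = 3) in unstimulated CD18Foxp3 Treg, the lowest of the 4 groups, and by 13.4 ± 2.20 times in stimulated CD18Foxp3 Treg, the highest.

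**Figure D1:**
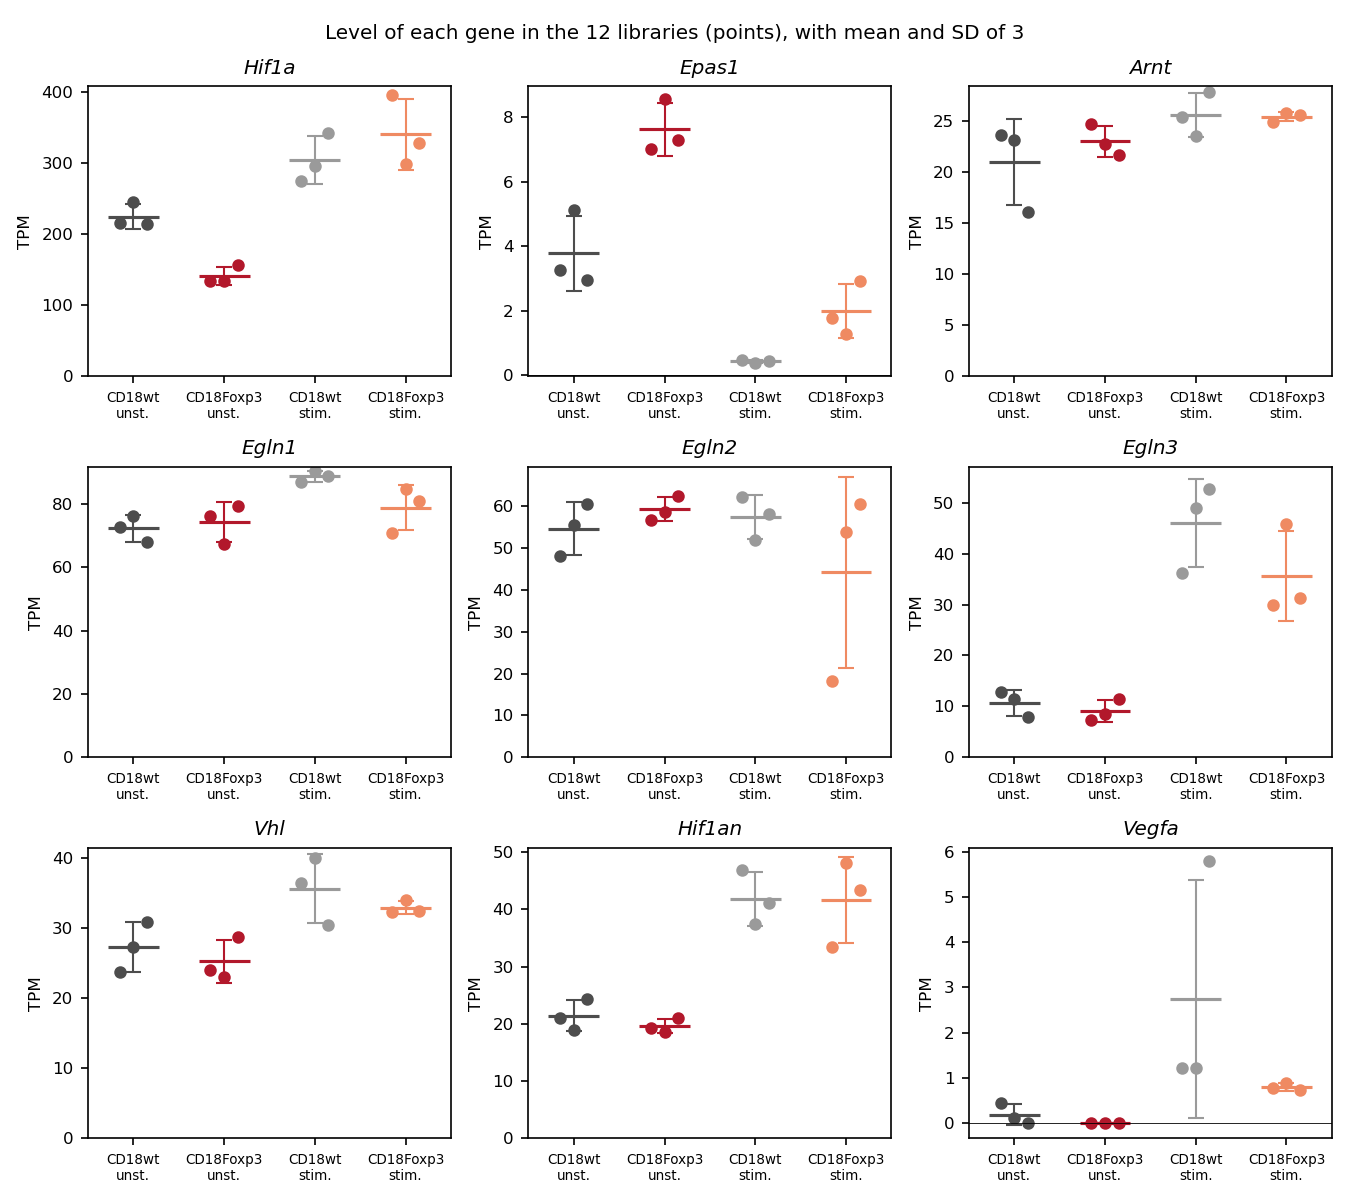
Level in TPM (linear axis, each gene on its own scale) of the 9 genes in the 12 libraries, with points for libraries and bars for the mean and SD of 3 libraries per group. Unstimulated CD18Foxp3 libraries hold the lowest Hif1a (133 to 156 TPM) and the highest Epas1 (7.02 to 8.57 TPM), and Egln3 separates the cultures in both genotypes.

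Hif1a reached 215, 245 and 214 TPM in the unstimulated CD18wt libraries and 134, 133 and 156 TPM in the unstimulated CD18Foxp3 libraries. The 2 genotypes did not overlap, and the mean was 225 ± 17.5 TPM (SD, n = 3) against 141 ± 12.9 TPM, a level 1.59-fold lower in CD18Foxp3. These are the values on which Hif1a was picked. The fitted log2 fold change on exon reads was −0.69 (SE 0.09), which is 1.62-fold lower for a threshold of 1.5-fold. In the stimulated cultures, which played no part in the choice, the libraries held 275, 295 and 341 TPM in CD18wt and 395, 298 and 327 TPM in CD18Foxp3 Treg. Here the genotypes overlapped, and the log2 fold change of 0.18 (SE 0.16) did not pass the test (adjusted p = 0.998, edgeR quasi-likelihood test).

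Stimulated libraries therefore all lay above the unstimulated ones of the same genotype on the TPM scale. The mean rose 1.35-fold in CD18wt Treg, to 304 ± 34.0 TPM, and 2.41-fold in CD18Foxp3 Treg, to 340 ± 49.6 TPM. TPM shifted between the cultures for genes at large: the median gene gained 0.36 in CD18wt and 0.31 in CD18Foxp3 Treg on the scale of log2(TPM + 1), against 0.02 and 0.01 when exon reads were scaled by TMM, which aligns the bulk of genes. On TMM-scaled exon reads the log2 difference of Hif1a was 0.04 (SE 0.14) in CD18wt and 0.91 (SE 0.14) in CD18Foxp3 Treg. The gap between these 2 responses was 0.86 (SE 0.19) on the log2 scale. No p is given for them, since the unstimulated libraries on which Hif1a was selected enter each, and nothing is read from their size.

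Hif1a rests on 4534 to 14746 exon reads per library, of which 92.1% over all libraries were placed uniquely. The antisense gene Gm15283 spans the whole of Hif1a, and Gm49321 overlaps its end on the same strand. They held 4 to 52 and 15 to 125 exon reads per library. The library kit does not mark strand, so reads of Hif1a and of Gm15283 cannot be told apart where their exons meet. Reads that cross exon junctions, a count less open to intronic or antisense signal, gave between 1043 and 1325 reads in unstimulated CD18Foxp3 and 1148 and 2194 in unstimulated CD18wt Treg. Scaled to the junction reads of each library (CPM), these were 263 to 305 against 412 to 482. They are part of the exon reads on which Hif1a was selected and add no independent support.

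Epas1, the second α chain, moved the other way. It held 3.27, 5.12 and 2.95 TPM in unstimulated CD18wt and 7.02, 8.57 and 7.30 TPM in unstimulated CD18Foxp3 Treg, with every CD18Foxp3 library above every CD18wt library. On exon reads this was a log2 fold change of 0.98 (SE 0.21), given without a test. Apart from Hif1a, which was picked in this comparison, Epas1 was the only gene of the other 8 whose unstimulated genotypes did not overlap. Of the 11829 genes tested, which leave out Vegfa, 15.6% did not overlap in either direction.

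Stimulation lowered Epas1 in both genotypes. Exon reads fell from 116, 193 and 67 to 10, 12 and 13 in CD18wt Treg, a log2 fold change of −3.53 (SE 0.39, adjusted p = 1.2e-05, edgeR quasi-likelihood test). They fell from 280, 276 and 254 to 63, 40 and 84 in CD18Foxp3 Treg, a log2 fold change of −2.30 (SE 0.29, adjusted p = 0.00016). The stimulated groups kept the order of the unstimulated ones, with 0.464, 0.374 and 0.451 TPM in CD18wt and 1.78, 1.29 and 2.93 TPM in CD18Foxp3 libraries, which did not overlap. This genotype difference in stimulated Treg, a log2 fold change of 2.23 (SE 0.50), did not pass the threshold after adjustment over all genes (unadjusted p = 0.00073, adjusted p = 0.438, edgeR). Under the other settings its log2 fold change lay between 1.03 and 2.24 and its adjusted p between 0.0212 and 0.999, above the threshold of 0.01 in each. The difference between the 2 responses to stimulation was 1.23 (SE 0.45) on the log2 scale and did not pass (adjusted p = 0.987).

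Because Epas1 is a classic gene of endothelial and some myeloid cells, markers of these cells are given beside it. Of 7 endothelial markers, Emcn and Cldn5 were at 0 in all libraries, Cdh5, Tek and Vwf never exceeded 0.259 TPM, and Pecam1, which T cells also express, made up most of the summed level. That sum was 46.3 to 56.0 TPM in unstimulated CD18wt and 49.6 to 55.6 TPM in unstimulated CD18Foxp3 Treg, and 17.0 to 27.1 and 21.8 to 27.7 TPM in the stimulated groups. Pecam1 fell past the threshold on stimulation in both genotypes, as Epas1 did. Its log2 fold change was −1.79 (SE 0.16) in CD18wt and −1.66 (SE 0.12) in CD18Foxp3 Treg. Egfl7, the remaining marker, went the other way, at most 0.206 TPM in unstimulated libraries and 2.68 to 5.25 TPM in stimulated ones. Egfl7 was kept for the test through the stimulated libraries alone, so its passing in both genotypes supports nothing further. The 11 myeloid and dendritic markers, with Siglech at 0 throughout, summed to 8.71 to 21.0 and 6.40 to 12.1 TPM in the unstimulated groups and to 8.93 to 14.1 and 12.7 to 17.4 TPM in the stimulated groups. Among them Lyz2 fell on stimulation of CD18wt Treg, from 8.35 ± 6.29 to 0.923 ± 0.822 TPM (SD, n = 3). Lyz2 was kept for that test through the unstimulated libraries alone, so its passing there supports nothing further. The 3 other myeloid and dendritic markers tested in CD18wt Treg did not pass. The 6 erythroid markers summed to 1.83 to 10.2 TPM in unstimulated CD18wt and 5.53 to 58.1 TPM in unstimulated CD18Foxp3 Treg, and to 0.725 to 4.04 and 0.234 to 0.667 TPM in stimulated CD18wt and CD18Foxp3 Treg. The unstimulated ranges overlap. In stimulated CD18Foxp3 Treg, where Epas1 was the higher, the erythroid sum was the lower. The myeloid and dendritic sum reached higher there, at 12.7 to 17.4 against 8.93 to 14.1 TPM, with ranges that overlap. The part of these markers in the result was not tested.

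The balance of the 2 α chains differed in every group. Hif1a transcripts outnumbered Epas1 transcripts by 62.0 ± 12.8 times (ratio of TPM, SD, n = 3) in unstimulated CD18wt and by 18.7 ± 2.93 times in unstimulated CD18Foxp3 Treg. After stimulation the ratio was 713 ± 106 in CD18wt and 188 ± 66.6 in CD18Foxp3 Treg. No library of one group lay within the range of another, and the ratio combines the gene picked for its level with a second one.

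**Figure D2:**
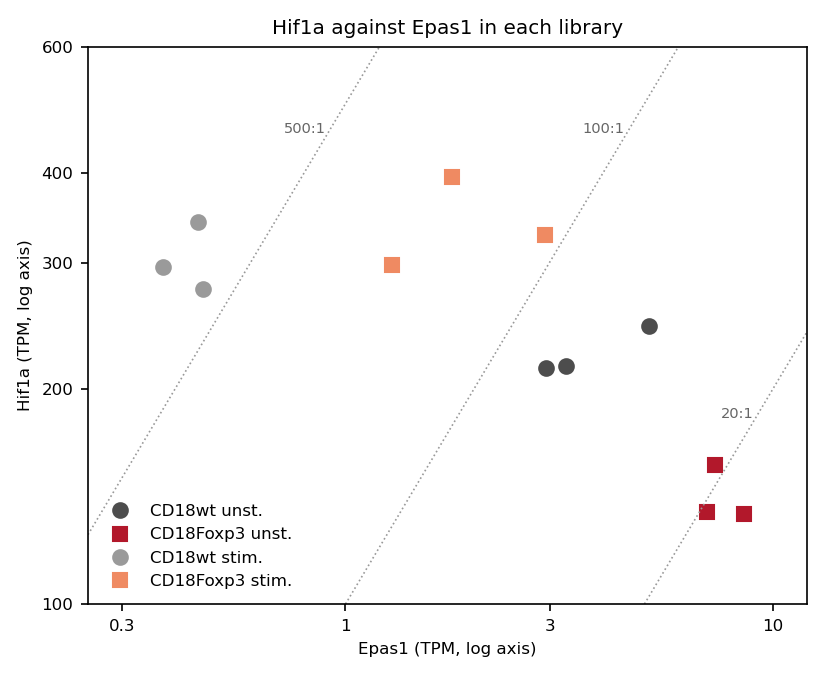
Hif1a against Epas1 in TPM, both on log axes, with 1 point for each of the 12 libraries and dotted lines for ratios of 20, 100 and 500. The 4 groups form separate clusters, from a mean ratio of 18.7 in unstimulated CD18Foxp3 to 713 in stimulated CD18wt Treg.

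Arnt, the shared β chain, varied little. Its level was 21.0 ± 4.22 and 23.0 ± 1.53 TPM (SD, n = 3) in unstimulated CD18wt and CD18Foxp3 Treg and 25.6 ± 2.18 and 25.4 ± 0.439 TPM after stimulation. Between the stimulated genotypes the log2 fold change was 0.0045 (SE 0.14, adjusted p = 0.998, edgeR). On stimulation the log2 fold change on TMM-scaled reads was −0.11 (SE 0.14) in CD18wt and −0.22 (SE 0.11) in CD18Foxp3 Treg, and it was 0.29 and 0.14 on the log2(TPM + 1) scale, so the sign depended on the scale and neither passed.

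Among the prolyl hydroxylases, Egln3 changed with stimulation. It held 12.8, 11.4 and 7.86 TPM in unstimulated and 36.3, 49.0 and 52.8 TPM in stimulated CD18wt Treg. The corresponding CD18Foxp3 libraries held 7.27, 8.60 and 11.5 TPM and 29.9, 45.8 and 31.2 TPM. The cultures did not overlap in either genotype. Exon reads rose with a log2 fold change of 1.71 (SE 0.21, adjusted p = 2.7e-05) in CD18wt and 1.60 (SE 0.22, adjusted p = 0.00025, edgeR) in CD18Foxp3 Treg. The 2 responses differed by −0.11 (SE 0.32) on the log2 scale, which did not pass (adjusted p = 0.990). Between the genotypes Egln3 overlapped in both cultures, with a log2 fold change of −0.37 (SE 0.21, adjusted p = 0.998) in stimulated Treg.

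Egln1, the main oxygen sensor of most tissues, held 72.4 ± 4.16 and 74.4 ± 6.30 TPM in unstimulated and 88.8 ± 1.74 and 78.8 ± 7.10 TPM in stimulated CD18wt and CD18Foxp3 Treg. Stimulated CD18wt libraries, at 87.0 to 90.5 TPM, lay above the CD18Foxp3 libraries, at 70.9 to 84.7 TPM. That difference did not pass (log2 fold change −0.17, SE 0.15, adjusted p = 0.998, edgeR). On stimulation Egln1 was −0.10 (SE 0.12, adjusted p = 0.533) in CD18wt and −0.28 (SE 0.11, adjusted p = 0.0517) in CD18Foxp3 Treg on TMM-scaled reads, and 0.29 and 0.08 on the log2(TPM + 1) scale.

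Egln2 stayed within 48.0 to 62.3 TPM in 11 of the 12 libraries. Stimulated CD18Foxp3 replicate 1 held 18.2 TPM from 322 exon reads, against 53.7 and 60.5 TPM in replicates 2 and 3 of that group. The same library held 125 intron reads of Egln2, within the 104 to 125 of its group. In it, 18 of 6216 well expressed genes lay at least as far below all other libraries (2.65-fold), against 0 to 6 in each of the other libraries. On stimulation Egln2 was −0.34 (SE 0.14, adjusted p = 0.0709) in CD18wt and −0.80 (SE 0.34, adjusted p = 0.0718, edgeR) in CD18Foxp3 Treg, and neither passed. On the log2(TPM + 1) scale the values were 0.07 and −0.58, with the opposite sign in CD18wt. In CD18Foxp3 Treg the log2 fold change passed without the filter on low counts (−0.79, adjusted p = 1.0e-06) and on junction reads (−0.86, adjusted p = 0.0060), and lay between −1.12 and −0.45 when single libraries were left out. The smallest was that without stimulated CD18Foxp3 replicate 1 (adjusted p = 0.0014), below 1.5-fold.

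As a result the make-up of the 3 hydroxylases shifted. Egln3 was 7.78 ± 1.92% of their summed TPM (SD, n = 3) in unstimulated CD18wt and 6.37 ± 1.17% in unstimulated CD18Foxp3 Treg. It was 23.8 ± 3.74% and 22.7 ± 4.0% after stimulation. The ratio of Egln1 to Egln3 went from 7.01 ± 1.51 to 1.98 ± 0.373 in CD18wt and from 8.41 ± 1.88 to 2.27 ± 0.380 in CD18Foxp3 Treg.

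**Figure D3:**
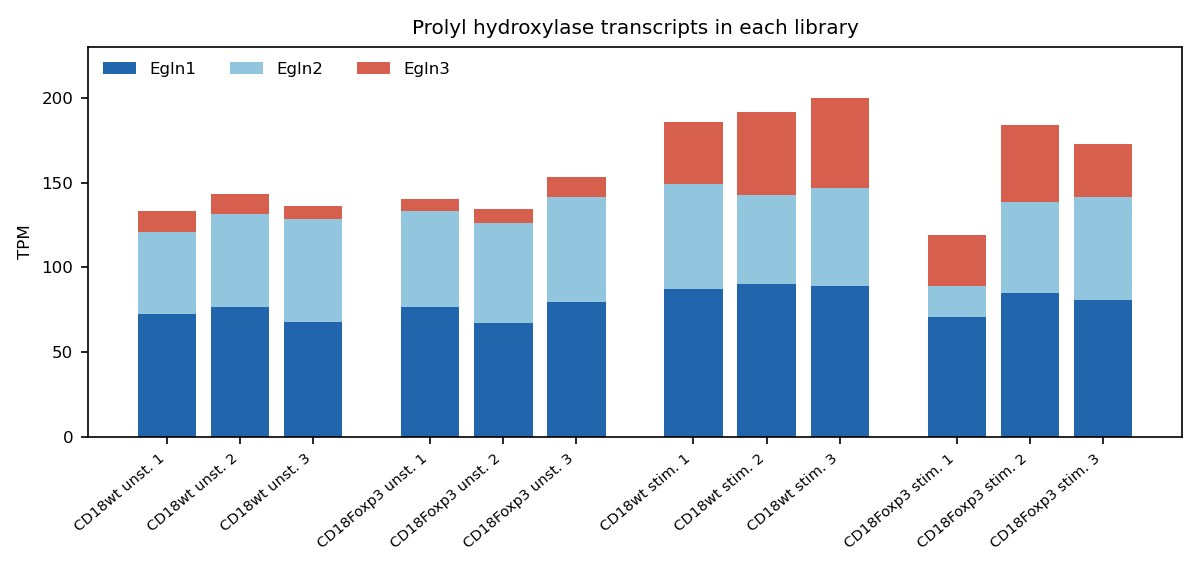
Stacked bars (linear axis from 0) of Egln1, Egln2 and Egln3 in TPM in each of the 12 libraries. The Egln3 segment grows in all 6 stimulated libraries, and stimulated CD18Foxp3 replicate 1 has a small Egln2 segment of 18.2 TPM.

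Vhl, which recognizes hydroxylated α chains, held 27.3 ± 3.58 and 25.3 ± 3.04 TPM in unstimulated and 35.7 ± 4.90 and 33 ± 0.88 TPM in stimulated CD18wt and CD18Foxp3 Treg. On TMM-scaled reads its log2 fold change on stimulation was −0.01 (SE 0.19) and 0.02 (SE 0.13), and on the log2(TPM + 1) scale 0.37 and 0.38. None of these passed the threshold. The genotypes overlapped in both cultures.

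Hif1an, the asparaginyl hydroxylase, held 21.0, 19.0 and 24.3 TPM in unstimulated and 46.8, 37.5 and 41.1 TPM in stimulated CD18wt Treg. In CD18Foxp3 Treg it held 19.2, 18.6 and 21.0 TPM and 33.5, 48.2 and 43.4 TPM. The cultures did not overlap in either genotype. In CD18Foxp3 Treg Hif1an rose past the threshold (log2 fold change 0.72, SE 0.13, adjusted p = 0.0015, edgeR). In CD18wt Treg the log2 fold change of 0.55 (SE 0.15, adjusted p = 0.0071) stayed below 1.5-fold. The responses differed by 0.16 (SE 0.21, adjusted p = 0.987), so no genotype difference was detectable. Leaving out unstimulated CD18Foxp3 replicate 1 or 2 moved the adjusted p in CD18Foxp3 Treg to 0.0108 and 0.0115. Leaving out unstimulated or stimulated CD18wt replicate 3 brought the CD18wt response past the threshold, at 0.70 and 0.59, as did limma on log2(TPM + 1), at 0.93 (adjusted p = 0.00070).

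Vegfa, an angiogenic ligand and HIF target, was near its detection limit. Unstimulated CD18wt libraries held 12, 3 and 0 exon reads, and the unstimulated CD18Foxp3 libraries held none. After stimulation there were 20, 30 and 128 reads in CD18wt and 21, 21 and 16 reads in CD18Foxp3 Treg. Vegfa was kept for the test on stimulation through the stimulated libraries alone, so its passing there supports nothing further. Scaled to library size, the summed reads rose 12-fold in CD18wt Treg, where 71.9% of the stimulated reads came from replicate 3. In CD18Foxp3 Treg they rose at least 19.1-fold over a floor of 3 reads in the unstimulated group, which covers counting error only. The CD18wt call was lost when any of unstimulated replicates 2 and 3 and stimulated replicates 2 and 3 was left out (adjusted p between 0.0120 and 0.0870), and in limma on log2(TPM + 1), at 1.46 (adjusted p = 0.0342). Between stimulated genotypes the TPM did not overlap, and the log2 fold change of −1.73 (SE 0.61) did not pass (unadjusted p = 0.0148, adjusted p = 0.902). Without stimulated CD18wt replicate 3 it was −0.64.

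Set side by side, stimulation moved 3 of the 8 genes other than Hif1a past the threshold in CD18wt Treg, where 33.6% of 11930 genes passed (18.7% higher and 14.9% lower). Egln3 and Vegfa were higher and Epas1 lower. In CD18Foxp3 Treg it moved 4 of 8, where 38.6% of 12019 genes passed (20.9% higher and 17.6% lower), and these were Egln3, Hif1an and Vegfa upward and Epas1 downward. The shares are not far from those of all genes, and 1 gene in each count is Vegfa. On the TPM scale Hif1a, Egln1, Egln3, Hif1an and Vegfa were higher without overlap in stimulated CD18wt Treg, 5 of 9 genes against 47.8% of all genes. In CD18Foxp3 Treg Hif1a, Arnt, Egln3, Vhl, Hif1an and Vegfa were, 6 of 9 against 47.9%. Both counts hold Hif1a, selected on the unstimulated libraries, and Vegfa, kept through the stimulated ones, so nothing is read from them. Epas1 was the 1 gene of 9 that was lower without overlap, beside 14.2% of all genes in CD18wt and 19.2% in CD18Foxp3 Treg.

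Between the stimulated genotypes, 0 of 8 other genes and 0% of 11930 genes passed in edgeR. An unadjusted p under 0.05 was found for 583 genes, 4.89% of those tested, and DESeq2 called 22. Of the 9 genes, 3 did not overlap in TPM, Epas1 higher and Egln1 and Vegfa lower in CD18Foxp3 Treg, beside 9.43% of all genes in either direction. For the difference between the responses, again 0 of 8 and 0% of 12636 genes passed in edgeR. Here 485 genes (3.84%) had an unadjusted p under 0.05, and DESeq2 called 1.

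**Figure D4:**
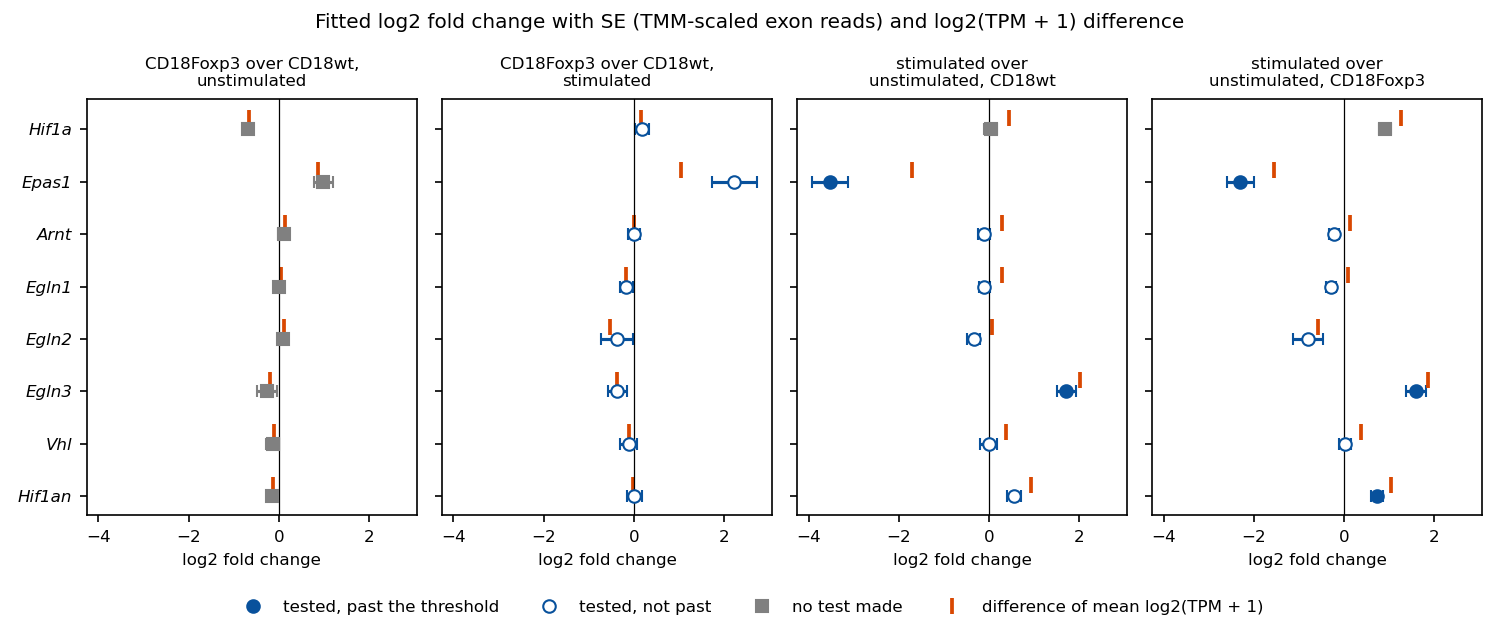
Log2 fold change (points, with SE) of 8 genes on TMM-scaled exon reads in the 4 comparisons, with filled circles past the threshold, open circles tested and not past, and grey squares not tested. Orange ticks give the difference of mean log2(TPM + 1), which lies to the right of the points for all 8 genes on stimulation, and Vegfa is left out because 1 group held no reads.

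Intron reads were counted separately and give a second view of the same libraries. They were few, with 1927 over all 12 libraries for Hif1a, none of them placed uniquely, 272 for Egln3 and 62 for Epas1. Egln3 intron reads were 16, 26 and 20 in unstimulated and 12, 20 and 31 in stimulated CD18wt libraries, and 44, 21 and 17 against 21, 38 and 6 in CD18Foxp3 libraries. They overlapped in both genotypes, and the log2 fold changes of −0.69 (SE 0.60, adjusted p = 0.461) and −0.90 (SE 0.49, adjusted p = 0.133, edgeR) did not pass, while the exon reads of Egln3 rose. For Epas1, intron reads were 13, 13 and 11 in unstimulated and 3, 4 and 3 in stimulated CD18Foxp3 Treg. They were kept for the test through the unstimulated libraries alone, so that Epas1 passed there supports nothing further, and the call was lost when library sizes were taken from exon reads and when any library was left out. It was 1 of the 7 fitted genes other than Hif1a, where 30.4% of 10260 genes passed. In CD18wt Treg 0 of 6 fitted genes passed, where 7.8% of 9492 genes did. Between the genotypes no gene passed on intron reads in either culture in edgeR (0% of 8602 and of 10917 genes). An unadjusted p under 0.05 was found for 361 (4.2%) and 384 (3.52%) of them. The difference between exon and intron responses was not tested.

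The wider pathway was read from lists of 78 counted genes: other HIF subunits, the Vhl ligase, modulators of HIF, targets of HIF in glycolysis and elsewhere, and the VEGF family. On stimulation of CD18wt Treg 25 of 68 tested genes rose, 9 fell and 34 did not pass, where 18.7% of all tested genes rose and 14.9% fell. In CD18Foxp3 Treg 26 of 67 rose, 10 fell and 31 did not pass, where 20.9% of all tested genes rose and 17.6% fell. The counts of the single lists stand beside these same shares. Between the genotypes, none of these genes passed in either culture, of 68 tested in each.

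Glycolytic targets had the highest median of the 6 lists in both genotypes. In CD18wt Treg 11 of 18 rose and 1 fell, beside 18.7% and 14.9% of all genes, with a median log2 fold change of 0.93 where the median of all genes was 0.02. In CD18Foxp3 Treg 11 of 18 rose and 2 fell, beside 20.9% and 17.6%, with a median of 0.93 beside 0.01 for all genes. Hk2, the inducible hexokinase, went from 2.94 ± 0.851 to 60.5 ± 23.2 TPM (SD, n = 3) in CD18wt and from 2.12 ± 0.359 to 56.8 ± 8.86 TPM in CD18Foxp3 Treg, with log2 fold changes of 3.97 (SE 0.32) and 4.38 (SE 0.17). Pgam1 (phosphoglycerate mutase) rose by 2.45 on the log2 scale in each genotype, Slc16a3 (the lactate exporter MCT4) by 2.36 and 2.13, and Tpi1 (triosephosphate isomerase) by 2.14 and 2.42. Their adjusted p lay between 1.5e-07 and 0.00076 (edgeR).

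Other HIF targets were divided. In each genotype 9 of 23 rose and 4 fell, the falls near the share of all genes, with a median log2 fold change of −0.00085 in CD18wt and 0.07 in CD18Foxp3 Treg. Tfrc, the transferrin receptor, went from 10.7 ± 2.20 to 296 ± 62.7 TPM in CD18wt and from 10.5 ± 1.67 to 319 ± 65.7 TPM in CD18Foxp3 Treg. Car12, a carbonic anhydrase, rose by 3.10 and 3.51 on the log2 scale. Mif, a cytokine, rose by 2.01 and 2.33, and Ero1l, an oxidase of the endoplasmic reticulum, by 1.5 and 1.45. Bnip3, a mitophagy receptor, rose by 1.15 (SE 0.30) in CD18wt and 2.36 (SE 0.23) in CD18Foxp3 Treg, responses whose difference did not pass (adjusted p = 0.987, edgeR). Cxcr4, a chemokine receptor, fell by 2.52 in CD18Foxp3 Treg, and its −2.73 (SE 0.57, adjusted p = 0.0124, edgeR) did not pass in CD18wt Treg.

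In the Vhl ligase, Cul2, its scaffold, rose by 1.63 (SE 0.15) in CD18wt and 1.85 (SE 0.18) in CD18Foxp3 Treg, and Eloc rose in CD18Foxp3 Treg by 0.60 (SE 0.16), which made 1 and 2 of 4 genes. Among HIF modulators 4 of 15 rose and 2 fell in CD18wt, and 4 of 14 rose and 3 fell in CD18Foxp3 Treg, not far from the shares of all genes. Siah1b, a ubiquitin ligase of a family that targets hydroxylases, rose by 2.52 and 2.33, and Fh1 (fumarate hydratase) by 1.39 in each. Cited2, which competes with HIF for coactivators, fell by 1.11 in CD18wt and by 1.60 in CD18Foxp3 Treg, and Os9 fell by 1.06 and 1.28. Of 4 further HIF subunits and relatives, Arnt2 and Hif3a fell in CD18wt Treg, by 2.17 (SE 0.32) and 2.00 (SE 0.54), and none passed in CD18Foxp3 Treg. For both, the difference between the responses did not pass (adjusted p = 0.987, edgeR). In the VEGF family 4 of 9 genes were tested, 0 passed in CD18wt Treg, and Nrp1 fell by 1.14 (SE 0.11) in CD18Foxp3 Treg. Its −0.86 (SE 0.23, adjusted p = 0.0103, edgeR) in CD18wt Treg just missed the threshold. The responses of Nrp1 did not differ past the threshold between the genotypes (adjusted p = 0.987, edgeR).

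**Figure D5:**
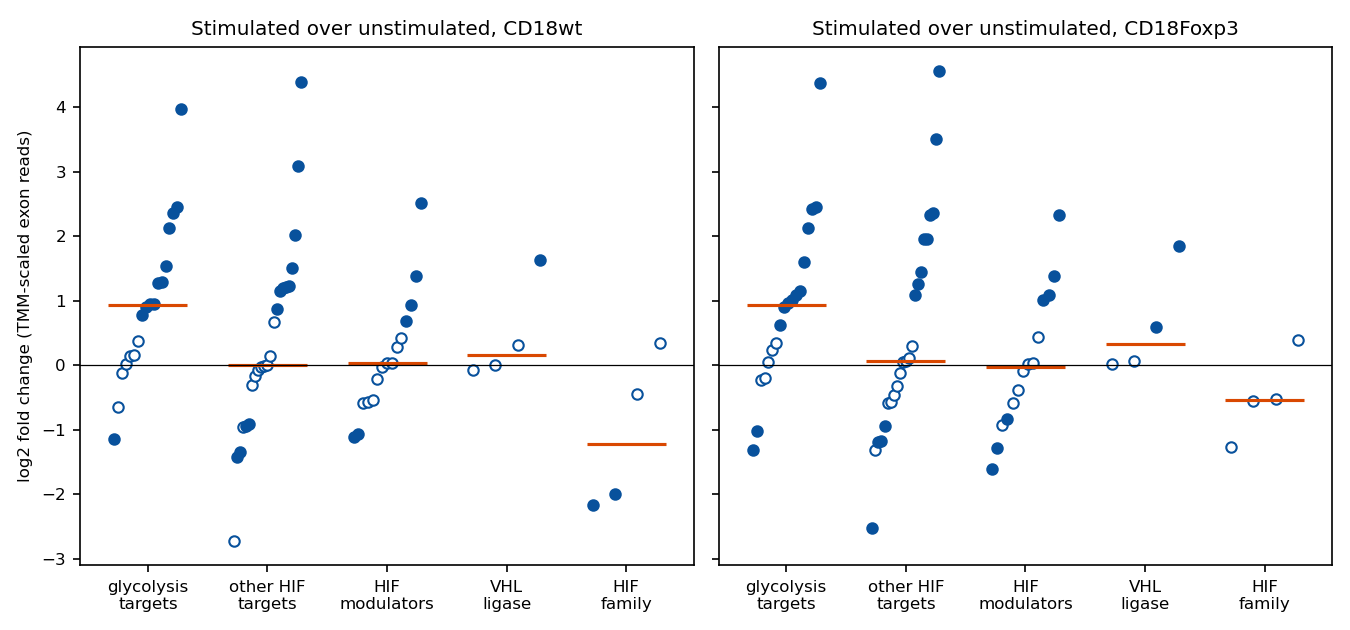
Log2 fold change on stimulation of the tested genes in 5 lists, for CD18wt (left) and CD18Foxp3 Treg (right), with filled points past the threshold, open points not past, and orange bars for list medians. The median of glycolytic targets lies above those of the other lists, at 0.93 in both genotypes.

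Genes whose level ran most like that of Hif1a across the 12 libraries were looked for among 10726 genes, by Pearson's r of TMM-scaled log2 counts. The 5 closest were Tspan6 (r = 0.888), Anxa3 (0.886), Fam133b (0.883), Ahi1 (0.883) and Wbp4 (0.881). Like Hif1a, each was lowest on average in unstimulated CD18Foxp3 Treg and highest in stimulated CD18Foxp3 Treg. They were picked for running like Hif1a in these same libraries, so the shared order adds nothing further. Their rank correlations (Spearman) with Hif1a lay between 0.664 and 0.839, and Anxa3 averaged 0.176 TPM in unstimulated CD18Foxp3 Treg. Tspan6, for example, held 4.93 ± 1.01, 2.14 ± 0.826, 7.32 ± 1.65 and 8.46 ± 1.05 TPM (SD, n = 3) in unstimulated CD18wt, unstimulated CD18Foxp3, stimulated CD18wt and stimulated CD18Foxp3 Treg. Among the other 8 genes, Vegfa (0.68), Egln3 (0.64) and Hif1an (0.57) ran along with Hif1a and Egln2 (−0.63), Epas1 (−0.61), Arnt (−0.58) and Egln1 (−0.56) against it. The libraries fall into 4 groups and share 2 cultures, so these correlations describe the groups. Vegfa had rank 1020 of the 10726 genes.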

How the data were processed

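Poly(A) RNA of sorted Treg was read as 59-base single reads after 15 PCR cycles. The authors trimmed and mapped the reads to GRCm38 in CLC Genomics Workbench, and deposited counts of exon, intron and junction reads per gene, in total and uniquely placed, without normalization. The authors also deposited TPM values (written with decimal commas), which sum to the same total in each library. Deposited exon counts were fitted in edgeR 4.0.16 (R 4.3.3) after filterByExpr (minimum count 10) and TMM scaling, with robust quasi-likelihood tests and Benjamini-Hochberg adjustment over all tested genes. A gene passed at 1.5-fold and an adjusted p of 0.01. Each comparison used its 6 libraries, and the interaction all 12. Alternatives were DESeq2 1.42.0, limma 3.58.1 on log2(TPM + 1), RLE scaling, no filter, an adjusted p of 0.05, uniquely placed reads, 1 fit of all libraries, a replicate block and each library left out. Junction reads joined them after the data had been seen. The genes and lists were chosen with earlier results of these data known. Named list genes were, per list and genotype, up to 4 with the largest change past the threshold on stimulation. The fits were tested on simulated data. One item of the lists is not reported here. RPKM and the authors' other columns were not used. Python 3.11.15, pandas 2.3.3 and matplotlib 3.10.9 were used.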

Additional observations from a re-analysis of the deposited data

How the results depend on the processing

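The responses of Epas1 and Egln3 to stimulation passed the threshold on exon reads in both genotypes under every setting tried. The number of genes past the threshold between unstimulated genotypes was 16 and became 33 at an adjusted p of 0.05, 134 without the filter, 86 in DESeq2, 7 on junction reads, 0 with all libraries in 1 fit, 0 in limma and 0 to 44 with single libraries left out. Between stimulated genotypes 0 became 61 without the filter, 22 in DESeq2 and 0 to 2 with libraries left out, and for the interaction 0 became 31 without the filter and 1 in DESeq2. On log2(TPM + 1) in limma, the stimulation values of Hif1a were 0.43 in CD18wt and 1.25 in CD18Foxp3 Treg. On that scale those of Arnt (0.29 and 0.14) and Egln1 (0.29 and 0.082), and in CD18wt Treg those of Egln2 (0.073) and Vhl (0.37), changed sign, beside the shift of all genes given above. Vhl in CD18wt Treg was also 0.0057 without the filter, 0.30 on junction reads and −0.20 to 0.13 with libraries left out, and −0.034 to 0.10 in CD18Foxp3 Treg. Between stimulated genotypes the values near 0 of Arnt (−0.00064 in 1 fit, −0.0062 in limma, −0.012 to 0.028 with libraries left out), Hif1an (−0.014 in limma, −0.082 to 0.13) and Vhl (−0.25 to 0.047) changed sign. In the interaction, junction reads gave 0.062 for Egln1, 0.069 for Egln3 and −0.24 for Vhl, and leaving out libraries gave −0.20 to 0.0062 for Arnt, −0.31 to 0.063 for Egln3 and −0.12 to 0.21 for Vhl. On intron reads, library sizes from exon reads gave 196 genes in place of 740 in CD18wt Treg and 0 in place of 1 of the 7 fitted genes in CD18Foxp3 Treg, and leaving out libraries gave 159 to 1060 genes in CD18wt Treg, 0 of the 7 in CD18Foxp3 Treg, and 0 to 4 and 0 to 3 genes between the unstimulated and the stimulated genotypes. The cause was not tested in any of these.

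Replicate numbers are shared by the groups, and the labels do not say that a number marks a mouse or a day. Deviations of same-numbered libraries from their group means correlated at −0.09 to 0.10 between the cultures of CD18wt and at 0.07 to 0.15 between those of CD18Foxp3 Treg, where each library was closest to its own number, and at −0.01 to 0.08 and −0.13 to −0.06 between the genotypes. With the replicate number as a block, 41 genes passed between unstimulated and 1 between stimulated genotypes, Hif1an between stimulated genotypes was −0.0025, and Vegfa no longer passed on stimulation of CD18wt Treg (adjusted p = 0.038), which left 2 of 8 genes there. The block changed no other call among the 8 genes. Low reads limit Epas1 in stimulated CD18wt Treg (10 to 13 per library), Vegfa, and all intron values.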
